A study of Mus musculus with 12 samples.

Results

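Epithelial junction genes were followed through *Kdm6a* knockdown in mouse embryonic stem (ES) cells. The group holds 40 listed genes: 15 claudins, 8 other tight junction proteins, 7 cadherins and catenins, 5 desmosome proteins, 2 adhesion molecules with 1 splicing factor, and 2 gap junction connexins. All 40 were measured, among 19938 genes in all, and 36 reached the minimum level of 0.1 of the array mean, as did 15329 of all genes. *Cldn2*, *Cldn8*, *Cldn10* and *Cldn23* lay below it and were not tested. *Cldn1* lay just inside at 0.132, a mean over the arrays of both lines, and *Cldn23* just outside at 0.0851.

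The series holds 12 Affymetrix Mouse Gene 1.0 ST arrays of PGK12.1, a female ES cell line, and WD44, a male one. In every experiment 1 array carried cells given a pool of 3 siRNAs against *Kdm6a* (*Kdm6a* RNAi) and 1 array carried cells given siRNAs without a target (control). PGK12.1 experiments 1 and 2 were double RNAi, with 100 pmol of siRNA for 48 h and then 400 pmol for a further 24 h, while PGK12.1 experiments 3 and 4 and WD44 experiments 1 and 2 were single RNAi, with 100 pmol for 48 h. PGK12.1 came from blastocysts of a 129 female and a (129 X PGK)F1 male and WD44 was labelled BL6. With 1 line per sex, sex, strain and line cannot be told apart. All cultures were kept with LIF on embryonic fibroblast feeders that were depleted on gelatin before the RNAi. KDM6A removes methyl groups from lysine 27 of histone H3.

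Tight junctions seal the space between neighbouring epithelial cells. Their strands are built from claudins and occludin and are tied to actin by ZO proteins such as TJP1. Adherens junctions hold cells together through cadherins and their catenin partners, desmosomes anchor keratin filaments through desmoplakin, and gap junctions pass small molecules through connexin channels. Undifferentiated mouse ES cells grow as compact colonies held together by E-cadherin (*Cdh1*).

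*Kdm6a* itself checked the labels. Its levels in PGK12.1 were 0.74, 0.728, 0.691 and 1.57 times the array mean after *Kdm6a* RNAi in experiments 1 to 4, against 1.81, 2.04, 1.84 and 3.05 in the controls. In WD44 they were 1.13 and 1.15 after *Kdm6a* RNAi, against 2.14 and 2.17 in the controls. The *Kdm6a* RNAi array was the lower in all 6 experiments. The mean log2 change was -1.29 ± 0.0772 (SE, limma, adjusted p = 0.000292) in PGK12.1 and -0.93 ± 0.109 in WD44, where the adjusted p was 0.129. Array medians were 6.15 to 6.48 in PGK12.1 experiments 1 to 3 and 8.03 to 8.21 in PGK12.1 experiment 4 and WD44, on the log2 scale, so levels from separate experiments are not comparable and every change was taken within an experiment. None of the 8 ES cell markers examined passed the test in either line, but no gene at all passed in WD44, and 5.81% of genes did in PGK12.1. Their mean log2 changes ran from -0.04 to 0.07 in PGK12.1 and from -0.23 (*Zfp42*) to 0.06 in WD44. The study describes its array experiments as independent. Whether each used a separate culture is not stated, so p-values measure the spread between these experiments.

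In PGK12.1, 4 claudins and 2 desmosome genes fell after *Kdm6a* RNAi, while N-cadherin and occludin rose. Of the 36 junction genes tested, 11 changed (30.6%, against 5.81% of all genes tested; limma, Benjamini-Hochberg adjusted p under 0.05). 8 fell (22.2%, against 2.10% of all genes) and 3 rose (8.33%, against 3.71%). The list was chosen with earlier results of these data known, so its shares here and in later paragraphs are not an independent test of it. The genes that fell were *Mpzl2*, *Cldn6*, *Cldn4*, *Dsp*, *Gjb5*, *Cldn9*, *Cldn7* and *Dsg2*, and those that rose were *Cdh2*, *Ocln* and *Cldn12*. At an unadjusted p under 0.05 there were 22 (61.1%, against 22.6% of all genes). 18 of the 36 were lower in all 4 experiments (50.0%, against 10.6% of all genes) and 6 were higher in all 4 (16.7%, against 16.3%). The median log2 change was -0.09 over the 36 genes and 0.01 over all genes, and the 36 ran between -0.66 and 0.38. Leaving out PGK12.1 experiment 1 left 7 of the 36 called, and leaving out experiment 3 or 4 left 6. Without experiment 2, 7 were called, of which 6 were among the 11 and *Cldn3* was new. *Cldn6*, *Mpzl2*, *Cdh2*, *Gjb5* and *Cldn4* passed each time an experiment of either line was left out. *Cldn7* and *Cldn12* lost the call whichever experiment was left out, *Dsg2* whichever PGK12.1 experiment was, *Dsp* in every case but PGK12.1 experiment 3, *Ocln* without PGK12.1 experiment 2 or 3, and *Cldn9* without PGK12.1 experiment 3 or 4. With a variance trend and robust moderation *Cldn3*, *Jup* and *Tjp1* passed as well, and no junction gene passed when the pairing of arrays by experiment was dropped.

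**Figure D1:**
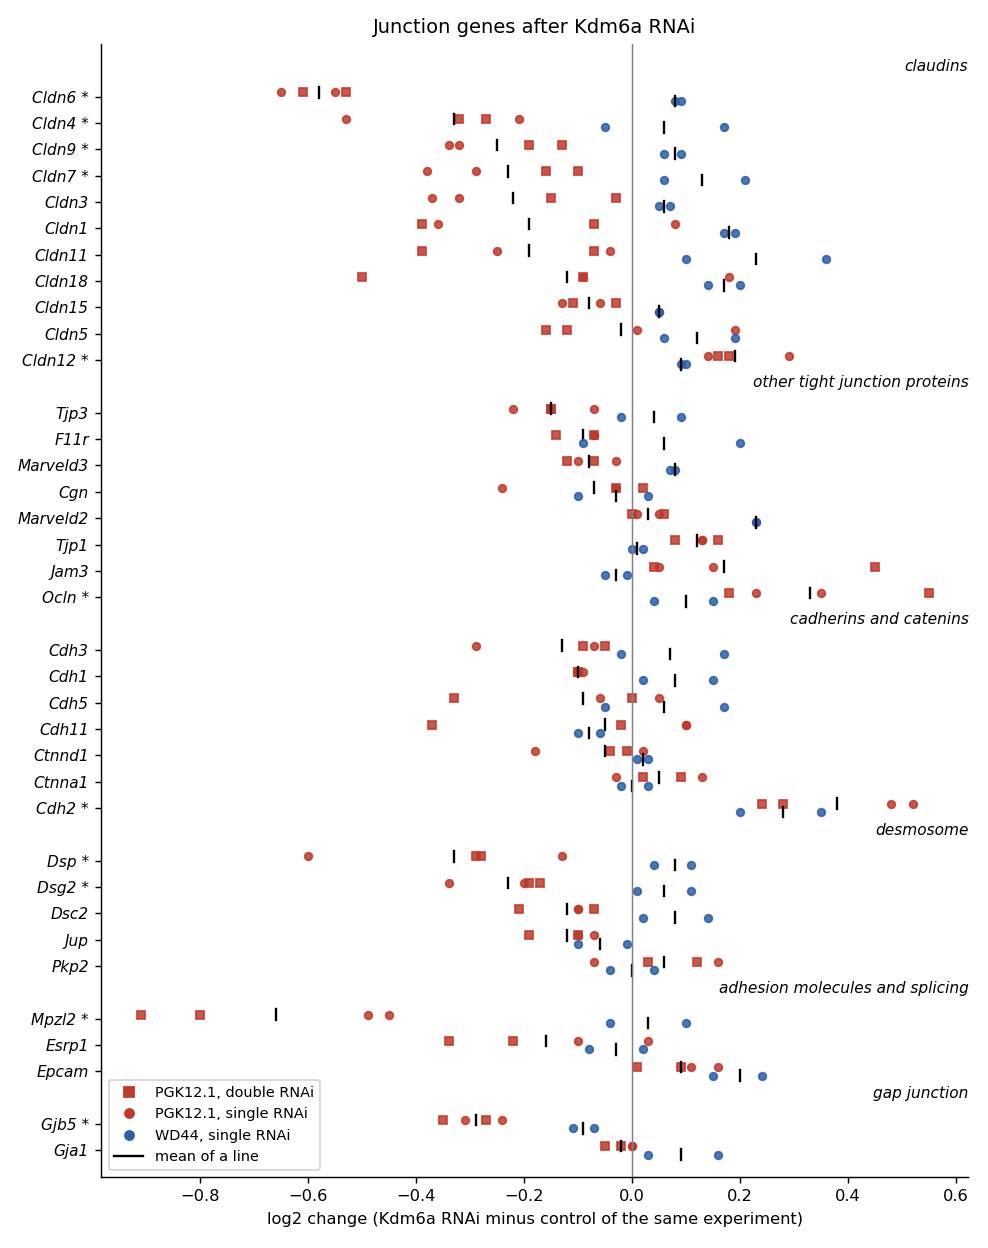
Log2 change (Kdm6a RNAi array minus its paired control, horizontal axis) of the 36 junction genes tested, grouped by role. Points are experiments, black ticks are the mean of a line and asterisks mark the 11 genes that changed in PGK12.1. All 4 PGK12.1 points of *Cldn6* lie between -0.65 and -0.53, whereas both WD44 points lie at 0.08 and 0.09.

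Among the 11 claudins tested, 4 fell, 1 rose and 6 did not pass in PGK12.1, with a median log2 change of -0.19. *Cldn6*, a claudin of embryonic epithelia, had levels of 0.475, 0.412, 0.95 and 1.9 times the array mean after *Kdm6a* RNAi in PGK12.1, against 0.695, 0.624, 1.49 and 2.79 in the controls of experiments 1 to 4. Its WD44 levels were 7.4 and 7.6 after *Kdm6a* RNAi, against 6.86 and 7.13 in the controls. Each PGK12.1 knockdown array was below its own control, and both WD44 knockdown arrays were above theirs. The PGK12.1 changes were alike, at -0.53, -0.61, -0.65 and -0.55, with a mean of -0.58 ± 0.0423 (SE, limma, adjusted p = 0.000443), so that the level fell by 33.3%. On its array *Cldn6* stood at or above 70.5% to 91.9% of genes in PGK12.1 controls and 98.7% to 98.8% in WD44 controls, a difference that was not tested since the arrays do not share a scale.

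*Cldn4*, whose protein tightens the barrier to ions, had levels of 1.7, 1.6, 2.47 and 3.03 after *Kdm6a* RNAi in PGK12.1, against 2.15, 1.92, 2.85 and 4.37 in the controls. All 4 knockdown arrays were below their own controls, with experiment 4 apart from the others at a log2 change of -0.53 against -0.32 to -0.21. The mean was -0.33 ± 0.0606 (adjusted p = 0.0137). In WD44 its levels were 5.06 and 5.3 after *Kdm6a* RNAi, against 5.16 and 4.67 in the controls, so the 2 experiments went opposite ways.

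*Cldn9*, a claudin of the inner ear that lies next to *Cldn6* on chromosome 17, had levels of 0.197, 0.203, 0.169 and 0.257 after *Kdm6a* RNAi in PGK12.1, against 0.228, 0.221, 0.211 and 0.325 in the controls, and a mean log2 change of -0.25 ± 0.0486 (adjusted p = 0.02). *Cldn7*, found also along the lateral membrane of epithelia, had levels of 0.256, 0.21, 0.299 and 0.435 after *Kdm6a* RNAi, against 0.29, 0.224, 0.388 and 0.531 in the controls, and a mean of -0.23 ± 0.0555 (adjusted p = 0.0397). For both genes each knockdown array was below its own control, and the 2 double RNAi experiments had the smaller falls. The log2 changes of *Cldn9* were -0.19 and -0.13 after double RNAi, against -0.32 and -0.34 after single RNAi, and those of *Cldn7* were -0.16 and -0.10 after double RNAi, against -0.38 and -0.29 after single RNAi. Neither difference passed (adjusted p = 0.583 for *Cldn9* and 0.561 for *Cldn7*). *Cldn3*, singled out after its values were seen because it adjoins *Cldn4* on chromosome 5, had changes of -0.15, -0.03, -0.37 and -0.32 and did not pass (adjusted p = 0.0607). Claudin sequences are related, and whether their probe sets shared signal was not tested.

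*Cldn12* was the claudin that rose, a call that held in 4 of 17 other settings and was lost without any 1 experiment. Its levels were 0.52, 0.559, 0.585 and 0.939 after *Kdm6a* RNAi in PGK12.1, against 0.465, 0.496, 0.53 and 0.767 in the controls. Every knockdown array was above its own control, and the log2 changes ran between 0.14 and 0.29 about a mean of 0.19 ± 0.0436 (adjusted p = 0.0327). The 6 claudins that did not pass had mean changes between -0.22 and -0.02. Among them *Cldn1*, needed for the skin barrier, had changes of -0.07, -0.39, -0.36 and 0.08. Its PGK12.1 levels were 0.0406 to 0.0915 after *Kdm6a* RNAi and 0.0519 to 0.0865 in the controls, all under the minimum of 0.1. It was tested only because its WD44 levels, at 0.238 to 0.305, raised its mean over all arrays, so these changes are of values near background.

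The upstream sequences of 4 of the genes that changed are shown because claudin and occludin promoters are known targets of ZEB and SNAI repressors, which bind the E-box CACCTG, written in the opposite strand as CAGGTG, and of the grainyhead factor GRHL2, searched as AACCGGTT, which reads the same on both strands. Each is the 250 bases before a transcription start in RefSeq (GRCm38.p6), 5′ to 3′ on the gene's strand, with E-box matches in capitals. The positions are chr17:23679115-23679364 on the plus strand for *Cldn6* and, on the minus strand, chr5:134946935-134947184 for *Cldn4*, chr4:127358165-127358414 for *Gjb5* and chr13:100552719-100552968 for the outer start of *Ocln*.
Cldn6: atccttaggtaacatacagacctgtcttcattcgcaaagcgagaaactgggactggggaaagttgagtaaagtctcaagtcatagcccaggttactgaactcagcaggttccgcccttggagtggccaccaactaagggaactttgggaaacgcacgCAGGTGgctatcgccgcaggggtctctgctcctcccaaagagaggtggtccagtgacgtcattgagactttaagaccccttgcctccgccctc
Cldn4: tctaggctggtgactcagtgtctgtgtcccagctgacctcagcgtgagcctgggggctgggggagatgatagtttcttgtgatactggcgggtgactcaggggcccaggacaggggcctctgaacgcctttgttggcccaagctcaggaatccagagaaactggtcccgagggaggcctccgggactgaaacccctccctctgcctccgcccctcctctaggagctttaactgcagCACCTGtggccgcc
Gjb5: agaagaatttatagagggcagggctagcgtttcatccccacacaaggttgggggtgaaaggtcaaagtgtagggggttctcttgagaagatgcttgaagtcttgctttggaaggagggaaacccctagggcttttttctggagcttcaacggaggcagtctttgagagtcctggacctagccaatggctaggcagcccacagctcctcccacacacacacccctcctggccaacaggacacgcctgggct
Ocln: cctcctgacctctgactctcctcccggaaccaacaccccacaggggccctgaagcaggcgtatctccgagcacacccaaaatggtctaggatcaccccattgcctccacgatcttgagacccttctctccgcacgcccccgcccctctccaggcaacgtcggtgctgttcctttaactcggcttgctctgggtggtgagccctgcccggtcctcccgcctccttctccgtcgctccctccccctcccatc

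The E-box was present once each upstream of *Cldn6* and *Cldn4*, which fell. It was absent upstream of *Gjb5* and *Dsp*, which also fell, and of the 3 starts of *Cldn12*, which rose. For *Cldn7* and *Ocln* 1 of 2 starts held 2 matches and the other held none. In all, 17.2% of 32851 upstream sequences of this length held the E-box and 0.116% held AACCGGTT, which was in none of the 7 genes with an entry. The match of letters is a description of these windows. *Mpzl2*, *Cldn9*, *Cdh2* and *Dsg2* had no entry.

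Of the 8 other tight junction proteins, 1 rose and 7 did not pass in PGK12.1. *Ocln* (occludin), a membrane protein of the tight junction strand, had levels of 0.169, 0.148, 0.204 and 0.287 after *Kdm6a* RNAi, against 0.151, 0.1, 0.16 and 0.245 in the controls. All 4 knockdown arrays were above their own controls, with experiment 2 the highest change at 0.55 and the others at 0.18 to 0.35. The control of experiment 2, at 0.1, was about at the minimum level, and the call was lost without experiment 2 or 3. The mean was 0.33 ± 0.0617 (adjusted p = 0.0158), an increase of 25.5%. In WD44 its levels were 0.506 and 0.516 after *Kdm6a* RNAi, against 0.45 and 0.498 in the controls.

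*Tjp1*, the ZO scaffold, was higher in all 4 PGK12.1 experiments by 0.08 to 0.16 on the log2 scale and did not pass (mean 0.12 ± 0.0405, adjusted p = 0.104). *Jam3*, a junctional immunoglobulin protein, had changes of 0.45, 0.04, 0.15 and 0.05, so that experiment 1 made most of its mean of 0.17. *Marveld2* (tricellulin), which seals the corners where several cells meet, had changes of 0.00 to 0.06 in PGK12.1. In WD44 its levels were 0.524 and 0.561 after *Kdm6a* RNAi, against 0.441 and 0.475 in the controls. Both WD44 knockdown arrays were above both controls, with a log2 change of 0.23 in each experiment (adjusted p = 0.17).

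Among the 7 cadherins and catenins, *Cdh2* rose and 6 did not pass in PGK12.1. *Cdh2* (N-cadherin), the cadherin of neural and mesenchymal cells, had levels of 0.408, 0.454, 0.383 and 0.702 after *Kdm6a* RNAi, against 0.35, 0.371, 0.267 and 0.503 in the controls. In WD44 the levels were 1.66 and 1.75 after *Kdm6a* RNAi, against 1.42 and 1.36 in the controls. The knockdown array was the higher in all 6 experiments. The mean log2 change was 0.38 ± 0.0581 in PGK12.1 (adjusted p = 0.0069) and 0.28 ± 0.0821 in WD44 (adjusted p = 0.195), and the difference of 0.10 between the lines had a 95% confidence interval of -0.12 to 0.33.

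*Cdh1* had levels of 3.22, 3.14, 3.65 and 4.79 after *Kdm6a* RNAi in PGK12.1, against 3.49, 3.34, 3.87 and 5.13 in the controls. The changes were nearly equal, at -0.10, -0.10, -0.09 and -0.10, and did not pass (adjusted p = 0.206). Its WD44 levels were 7.45 and 7.87 after *Kdm6a* RNAi, against 7.25 and 7.04 in the controls. *Ctnna1* (alpha-catenin), which links cadherins to actin, had a mean change of 0.05 in PGK12.1, with an interval of -0.05 to 0.15. The 6 genes of this class that did not pass lay between -0.13 and 0.05.

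**Figure D2:**
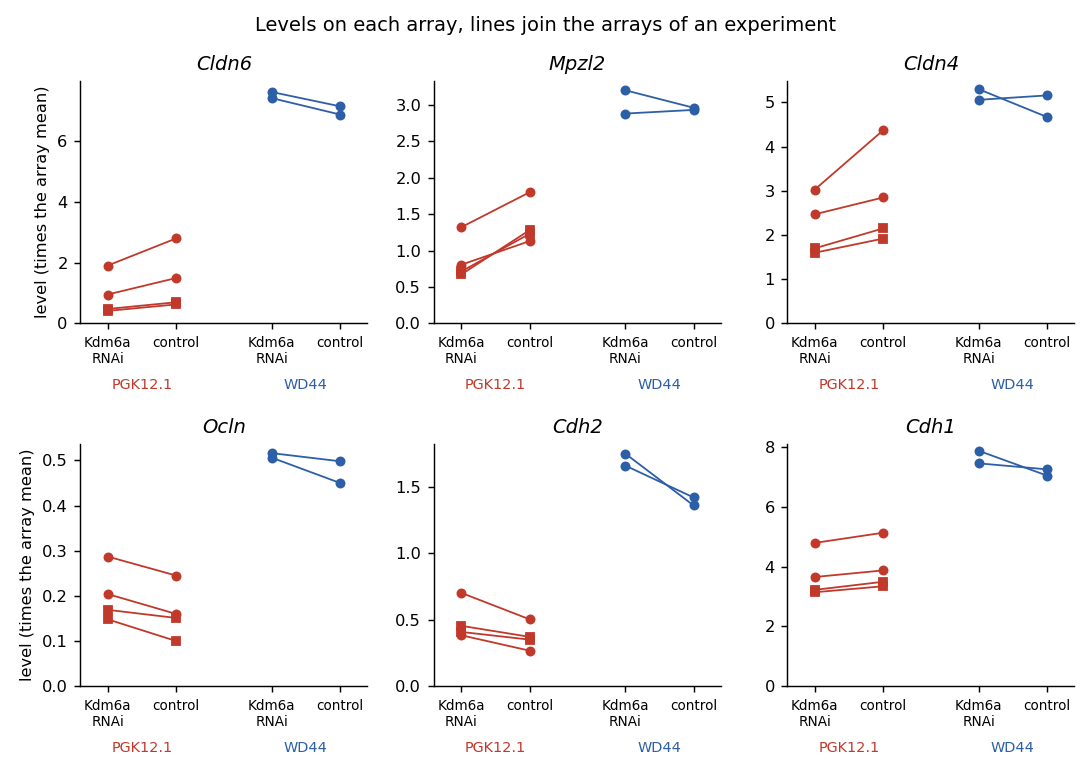
Level of 6 junction genes on each array (vertical axes, times the array mean, each from 0), with a line joining the Kdm6a RNAi and control arrays of an experiment. Squares are double RNAi and circles single RNAi. The PGK12.1 lines of *Cldn6*, *Mpzl2*, *Cldn4* and *Cdh1* are lower on the Kdm6a RNAi side, and all lines of *Ocln* and *Cdh2* are higher there.

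Among the 5 desmosome genes, 2 fell and 3 did not pass in PGK12.1. *Dsp* (desmoplakin), the plaque protein that binds keratin filaments, had levels of 0.391, 0.442, 0.492 and 0.607 after *Kdm6a* RNAi, against 0.485, 0.532, 0.537 and 0.919 in the controls. Each knockdown array was below its own control, with log2 changes that ran widely, from -0.60 in experiment 4 to -0.13 in experiment 3, and a mean of -0.33 ± 0.0681 (adjusted p = 0.0247). *Dsg2*, a desmosomal cadherin, had levels of 0.695, 0.656, 0.7 and 0.737 after *Kdm6a* RNAi, against 0.804, 0.732, 0.803 and 0.932 in the controls, and a mean of -0.23 ± 0.0464 (adjusted p = 0.0234). Each of its knockdown arrays was below its own control, by 0.17 to 0.34 on the log2 scale. *Jup* (plakoglobin), shared by desmosomes and adherens junctions, was lower in all 4 by 0.07 to 0.19 and did not pass (adjusted p = 0.152).

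*Mpzl2*, an epithelial adhesion molecule of the immunoglobulin family, had the largest mean fall of the 36 genes in PGK12.1. Its levels were 0.672, 0.713, 0.805 and 1.32 after *Kdm6a* RNAi, against 1.28, 1.23, 1.13 and 1.8 in the controls. In WD44 they were 2.88 and 3.2 after *Kdm6a* RNAi, against 2.93 and 2.96 in the controls. All 4 PGK12.1 knockdown arrays were below their own controls, while the WD44 experiments went opposite ways. The PGK12.1 mean was -0.66 ± 0.0763 on the log2 scale (adjusted p = 0.00191), and the level fell by 36.8%. The changes were -0.91 and -0.80 after double RNAi and -0.49 and -0.45 after single RNAi.

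*Epcam*, the epithelial adhesion molecule of ES cells, was higher in every experiment of both lines without passing, by 0.01 to 0.16 in PGK12.1 (adjusted p = 0.252) and by 0.15 and 0.24 in WD44 (adjusted p = 0.21). Of the connexins, *Gjb5*, best known from trophoblast and skin, had levels of 0.761, 0.733, 0.7 and 0.818 after *Kdm6a* RNAi in PGK12.1, against 0.93, 0.926, 0.825 and 1.01 in the controls. Each knockdown array was below its own control, by a similar amount in all 4 experiments (-0.35 to -0.24), and the mean log2 change was -0.29 ± 0.0418 (adjusted p = 0.00559). In WD44 its levels were 0.42 and 0.405 after *Kdm6a* RNAi, against 0.435 and 0.434 in the controls. *Gja1* (connexin 43), the abundant connexin of ES cells, had a mean change of -0.02 in PGK12.1, with an interval of -0.11 to 0.08.

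In WD44 none of the 36 junction genes passed, as none of the 15329 genes did (limma, 0% called; unadjusted p under 0.05 for 4 of the 36, 11.1%, against 16.1% of all genes). The methods' paired t-test with the same adjustment also called 0 of the 36, against 174 of the 15329 genes. With 2 pairs that test passes only genes whose 2 changes are almost identical, and exactly equal changes were given no p-value. Both counts therefore say little about the size of a change. More values lay above 0 than below, and 21 of the 36 were higher in both WD44 experiments (58.3%, against 31.3% of all genes) and 4 were lower in both (11.1%, against 33.0%). The median log2 change was 0.07 over the 36 genes and 0.00 over all genes. The largest means with the same sign in both experiments were those of *Cdh2*, *Cldn11*, *Marveld2*, *Epcam*, *Cldn1* and *Cldn18*, at 0.28, 0.23, 0.23, 0.20, 0.18 and 0.17. The WD44 control levels of *Cldn11* (0.146 and 0.17) and *Cldn18* (0.121 and 0.138) were close to the minimum level. *Cldn11* changed by 0.36 and 0.10. The 4 genes lower in both were *Gjb5*, *Cdh11*, *Jup* and *Jam3*, with means between -0.09 and -0.03.

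The difference between the lines was tested directly as the PGK12.1 change minus the WD44 change. WD44 had single RNAi only, while 2 of the 4 PGK12.1 experiments were double RNAi, so the number of rounds and the time of harvest enter this difference. Array medians were also lower in PGK12.1 experiments 1 to 3 (6.15 to 6.48) than in PGK12.1 experiment 4 and WD44 (8.03 to 8.21). *Kdm6a* itself changed by -1.27, -1.50, -1.42 and -0.96 in PGK12.1, against -0.94 and -0.92 in WD44. The part of array set and depth of knockdown in this difference was not tested. No junction gene passed (limma, 0% of the 36 and of all genes), and 15 of the 36 had an unadjusted p under 0.05 (41.7%, against 21.0% of all genes). The median difference was -0.15 over the 36 genes and 0.01 over all genes. *Cldn6* came nearest to the threshold, with a difference of -0.67 (95% confidence interval -0.83 to -0.51, adjusted p = 0.0554). It was -0.69 for *Mpzl2* (-0.99 to -0.40, adjusted p = 0.0857), -0.40 for *Dsp*, -0.39 for *Cldn4*, -0.37 for *Cldn7* and -0.32 for *Cldn9*. With the PGK12.1 double RNAi experiments alone the difference was -0.65 for *Cldn6* and -0.88 for *Mpzl2*, and with the single RNAi experiments alone it was -0.69 for *Cldn6* and -0.50 for *Mpzl2*, and neither gene passed in either setting. The 8 genes that fell in PGK12.1 all had an interval below 0 and an adjusted p between 0.0554 and 0.157. They were picked by their fall in PGK12.1, which is part of this difference, and the intervals are unadjusted. Their shared sign is therefore no separate evidence of a difference between the lines. *Cldn6* passed this test in 3 of 15 other settings, given with the processing.

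**Figure D3:**
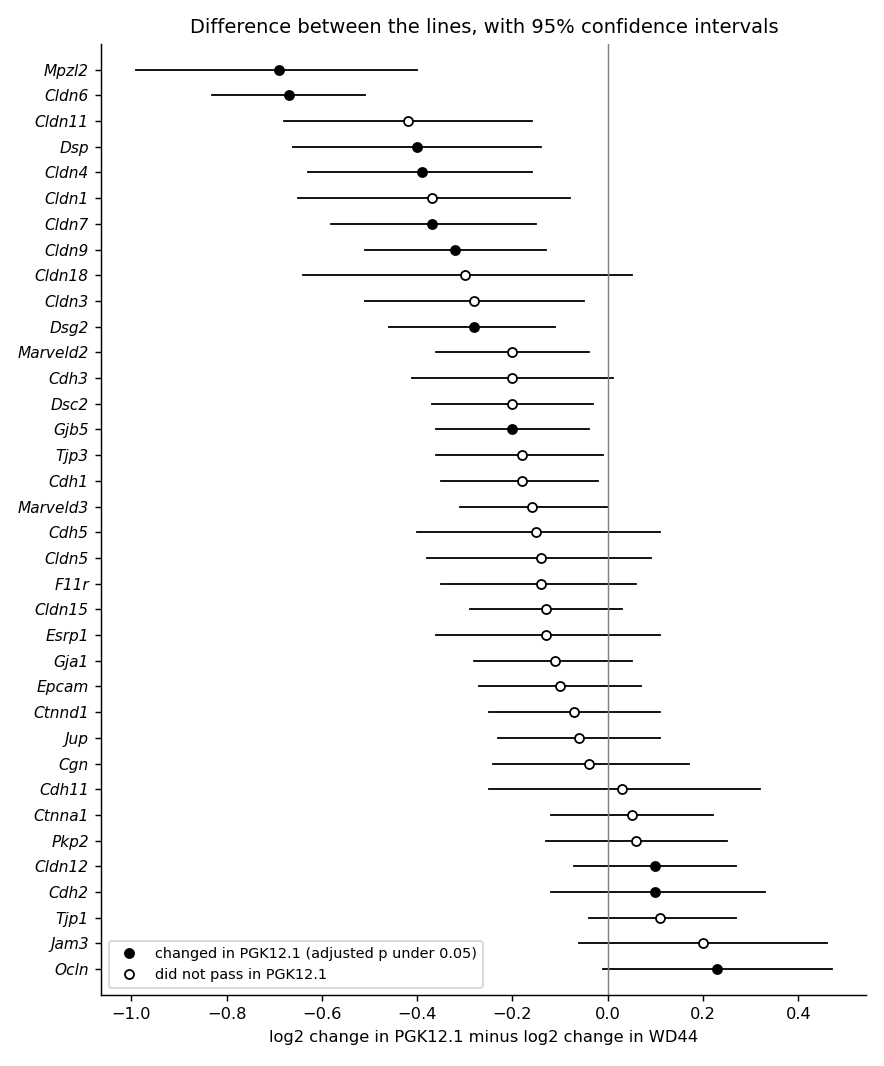
Difference between the lines (log2 change in PGK12.1 minus log2 change in WD44, horizontal axis) for the 36 junction genes, with bars as 95% confidence intervals. Filled circles are the 11 genes that changed in PGK12.1. The difference was -0.69 for *Mpzl2* and -0.67 for *Cldn6*, and 28 of the 36 values lie below 0.

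Double RNAi was set against single RNAi within PGK12.1, where the number of rounds, the time of harvest and the array set cannot be told apart. No junction gene passed (limma, 0% of the 36 and of all genes; unadjusted p under 0.05 for 7 of the 36, 19.4%, against 8.87%). *Mpzl2* had the lowest p, with a difference of -0.39 (95% confidence interval -0.59 to -0.18, adjusted p = 0.505). For *Cldn6* the difference was 0.03 (-0.16 to 0.22).

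Other junction and epithelial genes moved both ways in PGK12.1. Of 99 further genes on 5 lists, 75 were tested, 6 rose and 4 fell, against 3.71% and 2.10% of all genes (limma). These counts include the list of regulators of the epithelial state, described below, of which 2 rose and 1 fell. At an unadjusted p under 0.05 there were 28 of the 75, against 22.6% of all genes. In WD44 none passed, as no gene did, and 10 had an unadjusted p under 0.05, against 16.1% of all genes. Among 21 other tight junction and polarity genes, *Marveld1*, *Prkci* (the atypical kinase of the polarity complex) and *Jam2* rose, with mean log2 changes of 0.35, 0.21 and 0.20. *Patj* (a polarity scaffold), *Cldn22* and *Ildr1* (a protein of tricellular junctions) fell, at -0.28, -0.27 and -0.24. Of 18 other cadherins, catenins and nectins, *Afdn* (afadin), which ties nectins to actin, rose by 0.21. None of 10 other desmosome and keratin genes passed, and *Perp* had the lowest p (0.14, adjusted p = 0.143). Nor did any of 6 other gap junction genes pass, with *Gjb1* closest (0.35, adjusted p = 0.0526).

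Few regulators of the epithelial state passed in PGK12.1. Of 20 tested, 2 rose and 1 fell, against 3.71% and 2.10% of all genes (limma). *Grhl2*, an activator of claudin genes, rose by 0.28 ± 0.043 (adjusted p = 0.0065) and *Zeb1*, a repressor of epithelial genes, rose by 0.22 ± 0.0462 (adjusted p = 0.0232). *Esrp2*, a splicing factor of epithelia, had levels of 0.303, 0.337, 0.343 and 0.669 after *Kdm6a* RNAi, against 0.402, 0.389, 0.515 and 0.846 in the controls. Each knockdown array was below its own control, with a mean log2 change of -0.39 ± 0.0588 (adjusted p = 0.0069). Its relative *Esrp1*, a member of the main group, had a mean of -0.16 and did not pass (adjusted p = 0.159).

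**Figure D4:**
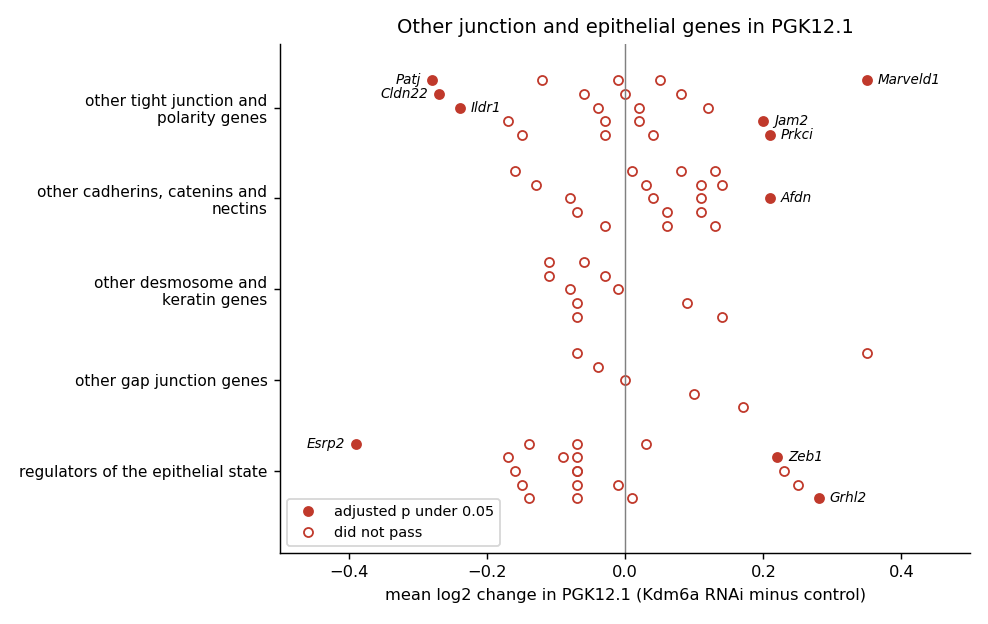
Mean log2 change in PGK12.1 (Kdm6a RNAi minus control, horizontal axis) of 75 further junction and epithelial genes in 5 lists. Each circle is a gene, spread vertically for legibility, and filled circles passed the test. 6 filled circles lie above 0 and 4 below.

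Markers of other cell types were measured on the same arrays. In PGK12.1 5.81% of all genes passed, and 2.10% passed as lower. The PGK12.1 sums below are ranges over experiments that do not share a scale, so they are not a paired comparison. Of 9 trophoblast markers tested in PGK12.1, *Plet1* (-0.66) and *Ascl2* (-0.34) fell, and the summed level of the list of 10 was 3.07 to 4.25 times the array mean after *Kdm6a* RNAi, against 3.56 to 4.82 in the controls. Of 10 primitive endoderm markers *Sparc* fell (-0.46), and the list summed to 4.14 to 6.96 after *Kdm6a* RNAi, against 4.81 to 8.47 in the controls. No fibroblast marker passed among 10 tested in either line. That list of 12 summed in PGK12.1 to 2.13 to 3.16 after *Kdm6a* RNAi, against 2.18 to 2.98 in the controls. In WD44 it summed to 5.32 to 5.85 after *Kdm6a* RNAi, against 4.98 to 5.09 in the controls. The median log2 change of the markers tested was -0.03 in PGK12.1 and 0.17 in WD44. None of 5 endothelial markers passed. No marker was listed at 0, and *Elf5*, which defines trophoblast stem cells, was below the minimum level at 0.0981. The part of these cell types in the junction changes was not tested, and in bulk RNA fewer cells of a type and less RNA per cell cannot be told apart.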

How the data were processed

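Arrays were grouped by the sample labels. The deposited values are log2 signals. The authors processed the raw array files with Expression Console and normalized by RMA, which the methods place in a Bioconductor package. Versions are not stated in the labels or methods, nor is the set of arrays each normalization covered. RMA removes background and summarises probes, and it compresses changes of dim genes. Of 35556 probe sets, 21789 had 1 gene symbol in the platform annotation, 1621 had several and 12146 had none. Log2 values were averaged over the probe sets of a gene. Every junction gene had 1 except *Cldn10* with 2. The level is the linear value over the array mean.

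All 15329 genes with a mean level of at least 0.1 were fitted with limma 3.58.1 in R 4.3.3 (empirical Bayes, 4 residual and 5.67 prior degrees of freedom), with experiment as a block and Benjamini-Hochberg adjustment at 0.05. Both lines share 1 estimate of the spread. Intervals are 95% and unadjusted. The fit was tested on simulated data. The pairing comes from the experiment numbers in the labels. The arrays of an experiment deviated together from their group means, with correlations of 0.828 to 0.972 in PGK12.1, raised by the array scales, and 0.265 in WD44, where both pairs are equal by construction. The number of arrays limits the precision.

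The junction genes and all lists were chosen with earlier results of these data known. Named were *Kdm6a*, every junction gene that passed, the 6 largest rises and falls per line with the same sign in every experiment, main components of each junction, genes at the minimum level, and from each further list the genes that passed or else the one with the lowest p. Upstream sequences and chromosomes are from RefSeq (GRCm38.p6). Alternatives covered the minimum level, probe sets, block, variance model, normalization, each line alone, the methods' paired t-test, RNAi rounds and leaving out each experiment.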

Additional observations from a re-analysis of the deposited data

Results flagged for a closer look

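In PGK12.1, 37 genes (the 36 junction genes and *Kdm6a*) were examined for an experiment far from the other 3, a rule that chance meets in about 1 of 20 genes. The log2 change of *Cdh3* was -0.29 in experiment 4, against -0.09 to -0.05 in the others. *F11r* was at -0.14 in experiment 2, against -0.07 in each of the others. *Cdh1* was at -0.09 in experiment 3, against -0.10 in the others, a gap the size of the rounding of the deposited values.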

How the results depend on the processing

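The count of 11 junction genes called in PGK12.1 became 7 with no minimum level, 3 with single RNAi only, 2 with double RNAi only (fewer arrays in both), and 6 to 8 when an experiment was left out. It was 14 with a variance trend and robust moderation (*Cldn3*, *Jup* and *Tjp1* gained, 1647 of all genes) and 12 at a minimum level of 0.25 (*Cldn3* and *Tjp3* gained, *Cldn9* below it, 1371 of 10578 genes). After quantile normalization it stayed at 11, with *Cldn3* gained and *Cldn12* lost. Without the replicate block it was 0, also at an unadjusted p under 0.05, since the array scales then entered the spread. By the methods' paired t-test it was 0 after adjustment and 19 at an unadjusted p under 0.05. *Cldn6* and *Mpzl2* passed in 15 of 17 alternatives, all but the fit without the block and the paired t-test. In WD44 and for double minus single RNAi the count was 0 in every alternative run. The difference between the lines had 2 calls at a minimum level of 0.25 (*Cldn6*, *Mpzl2*; 270 of 10578 genes), 5 with a variance trend and robust moderation (with *Cldn4*, *Cldn7* and *Dsp*; 553 of 15329 genes), and 1 after quantile normalization (*Cldn6*; 2 of all genes). The cause was not tested. Its paired t-test, and that for double minus single RNAi, were not run.

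No value that passed changed sign. Values that had not passed did so without WD44 experiment 2 in WD44 (*Cldn4* -0.05, with 0.17 without experiment 1, and *Mpzl2* -0.04, with 0.10). With single RNAi only in PGK12.1, *Cldn18* was 0.04 and *Cdh11* 0.10, and over the left-out experiments *Cdh11* ran between -0.10 and 0.06. In the difference between the lines, *Cdh2* was -0.02 with double RNAi only, and *Cdh11* was -0.11 there and ran between -0.02 and 0.14 over the left-out experiments.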
